A study of Mus musculus with 8 samples.

Results

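The 10 genes described here encode the DNA methyltransferases Dnmt1, Dnmt3a and Dnmt3b, the TET dioxygenases Tet1, Tet2 and Tet3, the isocitrate dehydrogenases Idh1 and Idh2, and the chromatin proteins Asxl1 and Asxl2. They were chosen by symbol in the authors' annotated table, where they held 13 of 28853 probe sets and made up 10 of 21104 named genes. RNA was measured on Affymetrix arrays in haematopoietic stem cells (HSCs), from which every blood lineage can be remade, taken from the marrow of untreated C57Bl/6 mice. The sort kept cells with Kit, Sca-1, CD150 and much CD9 but no lineage markers and no CD48. The 4 KO pools came from Vav-Cre;BMPR-II(fl/fl) mice, in which Cre, driven by the Vav promoter in blood cells, removes exons of the gene for the type II bone morphogenetic protein (BMP) receptor. The 4 WT pools came from littermates without Cre. Per the labels' protocols and genotypes, every array holds RNA of 3 pooled mice, so mice within a pool cannot be told apart. The study's design text instead speaks of 4 mice a group, and the conflict is not settled here. All 3 mice of each KO pool were fl/fl. WT pool 1 held 1 fl/fl and 2 fl/+ mice, WT pool 2 held 3 fl/+ mice, WT pool 3 held 1 mouse each of fl/fl, fl/+ and +/+, and WT pool 4 held 2 fl/fl and 1 fl/+ mice. Only the KO pools carry Cre, so an effect of the transgene and an effect of losing Bmpr2 cannot be told apart. The labels do not give the age of the mice.

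DNA methylation marks cytosines that stand before a guanine (CpG). Dnmt1 copies the mark onto the new strand at replication, Dnmt3a and Dnmt3b set it on unmarked DNA, and the TET enzymes oxidise it, which starts its removal. TET enzymes use alpha-ketoglutarate, which Idh1 makes in the cytosol and Idh2 in mitochondria. Asxl1 and Asxl2 are partners of the histone deubiquitinase Bap1. In people, blood stem cells that carry mutations in several of these genes, DNMT3A, TET2 and ASXL1 foremost, can expand with age into large clones, which is called clonal haematopoiesis. In mice, loss of Dnmt3a or of Tet2 expands the stem cell pool. The comparison asks whether RNA of these genes differed in stem cells of mice whose gene for the type II BMP receptor, Bmpr2, was targeted in blood cells.

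RefSeq promoter windows (build GRCm38.p6) matched all 10 genes with 15 start sites, and the 250 bases before each start were read. Of the 15 windows, 14 held more CpG than the median of 6 over all 32851 windows. The numbers ran between 2, at one of the Dnmt1 starts, and 51 at Tet2, a number that 0.067% of all windows reach. Below are the window of Tet2, the gene whose groups of pools did not overlap, and 4 others. Dnmt1 (the start with most CpG, 26) and Idh2 (17) had levels that rose with S phase genes across pools. Asxl2 (31) and Tet3 (17) had levels that fell as S phase genes rose, for Tet3 by 1 of its 2 probe sets. Each window is written 5′ to 3′ on the gene's strand, with CpG in capitals.
Tet2, chr3:133544391-133544640, - strand: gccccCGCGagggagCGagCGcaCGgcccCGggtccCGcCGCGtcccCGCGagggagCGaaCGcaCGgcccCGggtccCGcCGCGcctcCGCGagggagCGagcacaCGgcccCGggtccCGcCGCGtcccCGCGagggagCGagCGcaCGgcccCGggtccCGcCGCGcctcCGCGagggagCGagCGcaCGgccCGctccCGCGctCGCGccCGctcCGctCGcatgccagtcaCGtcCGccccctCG
Dnmt1, chr9:20952624-20952873, - strand: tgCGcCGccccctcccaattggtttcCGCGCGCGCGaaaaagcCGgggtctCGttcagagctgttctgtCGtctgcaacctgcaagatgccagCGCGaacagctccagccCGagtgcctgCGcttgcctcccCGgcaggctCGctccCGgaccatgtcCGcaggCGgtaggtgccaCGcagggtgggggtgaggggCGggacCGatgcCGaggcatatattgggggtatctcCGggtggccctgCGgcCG
Idh2, chr7:80115351-80115600, - strand: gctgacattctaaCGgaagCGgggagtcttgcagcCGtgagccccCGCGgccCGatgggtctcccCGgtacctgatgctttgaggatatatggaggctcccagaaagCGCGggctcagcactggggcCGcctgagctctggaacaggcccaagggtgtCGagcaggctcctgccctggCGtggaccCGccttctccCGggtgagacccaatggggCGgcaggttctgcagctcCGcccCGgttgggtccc
Asxl2, chr12:3426607-3426856, + strand: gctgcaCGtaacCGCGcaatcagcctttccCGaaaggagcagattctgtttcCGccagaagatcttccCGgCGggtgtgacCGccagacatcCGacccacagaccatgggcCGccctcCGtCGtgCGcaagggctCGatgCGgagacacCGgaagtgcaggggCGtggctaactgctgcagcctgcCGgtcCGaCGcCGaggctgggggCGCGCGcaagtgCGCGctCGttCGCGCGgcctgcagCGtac
Tet3, chr6:83441679-83441928, - strand: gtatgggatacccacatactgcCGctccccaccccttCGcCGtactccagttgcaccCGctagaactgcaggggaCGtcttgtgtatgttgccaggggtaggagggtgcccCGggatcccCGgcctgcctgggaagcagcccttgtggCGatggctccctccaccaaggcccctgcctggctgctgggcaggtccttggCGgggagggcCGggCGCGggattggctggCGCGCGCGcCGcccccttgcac
The letters TTCCCGC and TTGGCGC, forms of the site of E2F factors, were searched on both strands. They stood in 1 of the 15 windows, that of Asxl1, and in 5.62% of all windows. Other forms of the site were not searched, so a window without these letters, such as that of Dnmt1, may still hold one. Methylation itself was not measured here. Along the RefSeq chromosomes, Dnmt3a and Asxl2 lie on chromosome 12 with 1 protein-coding gene between them, and Dnmt3b and Asxl1 on chromosome 2 with 2 between them. Idh1 shares chromosome 1 with Bmpr2, with 37 protein-coding genes between.

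Values are log2 levels after robust multi-array averaging (RMA), and differences are KO minus WT on that scale. The arrays had medians between 5.58 and 5.69. WT pool 2 stood farthest from the rest, its median correlation with the remaining arrays being 0.984, against 0.985 to 0.988 for each of those. Bmpr2 itself averaged 6.87 ± 0.26 in KO pools and 7.65 ± 0.44 in WT pools (SD, n = 4 each). The difference, -0.79, did not pass limma (adjusted p = 0.967), and 3 of 4 KO pools were below all WT pools. Transcripts without the deleted exons may still be detected, so its level checks the labels only in part. HSC markers were present in both groups, Procr averaging 7.58 ± 0.43 in KO pools and 7.71 ± 0.13 in WT pools, and Hlf 10.04 ± 0.31 in KO pools and 10.21 ± 0.24 in WT pools. Slamf1 averaged 7.17 ± 0.35 in KO pools and 6.90 ± 0.23 in WT pools, and Cd9 8.91 ± 0.65 in KO pools and 8.91 ± 0.62 in WT pools. Of the 7 HSC markers listed, 2 had a positive and 5 a negative difference, with a median of -0.10. The summed level of each marker list overlapped between the groups. For 6 granulocyte markers the mean level lay between 6.18 and 7.38 in KO pools and between 5.95 and 7.47 in WT pools. For 5 multipotent progenitor markers it lay between 5.81 and 6.22 in KO pools and between 5.45 and 5.95 in WT pools, all 5 members having a positive difference. For 6 erythroid markers it lay between 6.59 and 7.16 in KO pools and between 6.20 and 6.99 in WT pools, and for 4 megakaryocyte markers between 8.58 and 9.25 in KO pools and between 8.22 and 9.20 in WT pools. For 4 markers of stroma and vessels the mean level lay between 5.79 and 6.53 in KO pools and between 5.74 and 6.12 in WT pools. B and T cell marker lists, of 4 genes each, had scores (mean deviation from each gene's mean) between -0.15 and 0.13 in KO pools and between -0.20 and 0.17 in WT pools. Their part in the results below was not tested.

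None of the 10 genes passed the test of KO against WT (limma, adjusted over 21104 genes, threshold 0.05), and in this fit neither did any other gene (0 called, 0.0% of those tested). Before adjustment 1 of the 10, Tet2, had a p under 0.05, with a lower level in KO. Over all genes 4.55% had such a p, 2.25% with a lower and 2.3% with a higher level in KO, so a count of 1 in 10 is no result about these genes. Of the 10, 6 had a positive and 4 a negative difference, with a median of 0.05, where 48.7% of all genes had a positive one and the median of all genes was -0.00425. This split depends on scaling: it was 5 to 5 after a further quantile normalization, and 8 to 2 with arrays centred on their medians, which by itself moved the share of positive differences over all genes to 62.0%. For 8 of the 10 genes the 95% interval of the difference lay within 1.5-fold in either direction, as it did for 83.9% of all genes. The exceptions were Tet1 and Tet3, whose pools spread widely. In sorted cells of a mixed population, fewer cells of a type and less RNA per cell cannot be told apart.

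**Figure D1:**
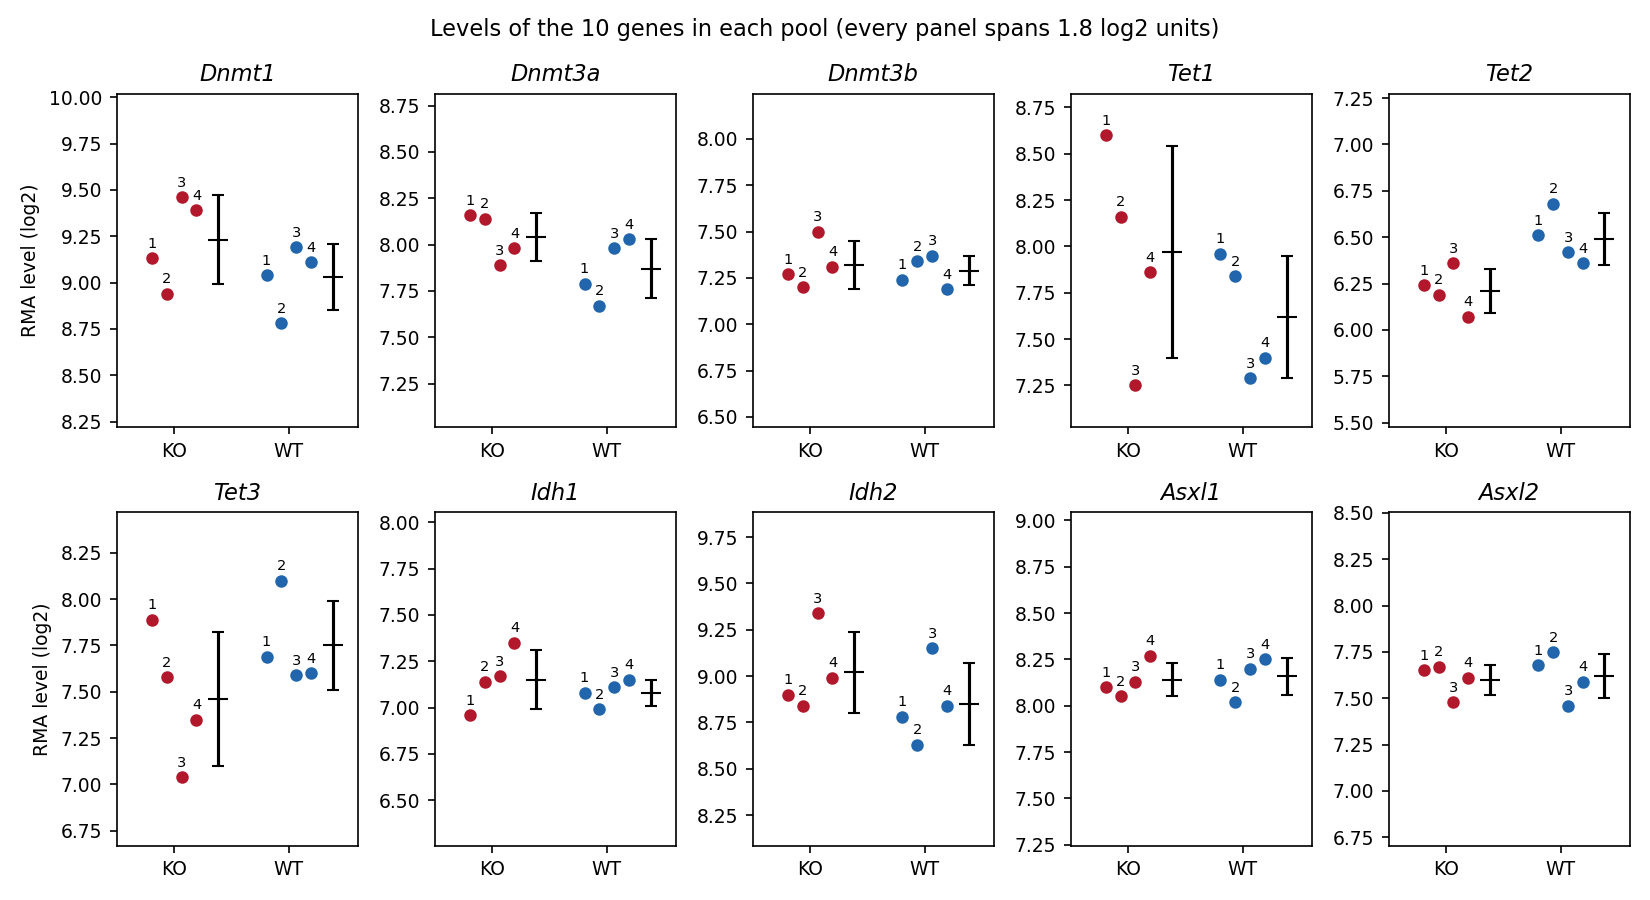
RMA levels (log2) of the 10 genes in each pool, KO left and WT right, with pool numbers beside the points and the mean ± SD as black bars. All panels span the same number of log2 units, so the wide spread of Tet1 and Tet3 and the narrow spread of Asxl1 and Asxl2 can be compared. Tet2 is the gene whose KO points all lie below the WT points, by a margin of 0.00036.

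The maintenance methyltransferase Dnmt1 had levels of 9.13, 8.94, 9.46 and 9.39 in KO pools 1 to 4, against 9.04, 8.78, 9.19 and 9.11 in WT pools 1 to 4. KO pools 3 and 4 lay above every WT pool, while KO pool 2 lay below 3 of the WT pools. The difference was 0.20 (SE 0.14), or 1.15-fold with an interval from 0.924-fold to 1.42-fold, and limma's adjusted p was 0.967 (exact permutation p = 0.229).

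Dnmt3a, the de novo enzyme whose loss expands mouse stem cells, was at 8.16, 8.14, 7.89 and 7.98 in KO pools 1 to 4, against 7.79, 7.67, 7.98 and 8.03 in WT pools 1 to 4. KO pools 1 and 2 were the highest of all, and KO pools 3 and 4 lay among the WT pools. The difference was 0.18 (SE 0.12), with a limma adjusted p of 0.967 (exact permutation p = 0.143).

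Dnmt3b, the other de novo enzyme, was at 7.27, 7.20, 7.50 and 7.31 in KO pools 1 to 4, against 7.24, 7.34, 7.37 and 7.19 in WT pools 1 to 4. KO pool 3 was the highest, and the other KO pools lay within the range of WT. The difference was 0.03 (SE 0.11), with an interval from -0.20 to 0.27, and it turned to -0.02 after quantile normalization. Dnmt3l, a cofactor of both de novo enzymes without catalytic activity of its own, averaged 4.31 ± 0.21 in KO pools and 4.52 ± 0.18 in WT pools (SD, n = 4 each).

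Tet2, whose loss also expands mouse stem cells, was at 6.24, 6.19, 6.36 and 6.07 in KO pools 1 to 4, against 6.51, 6.68, 6.42 and 6.36 in WT pools 1 to 4. All KO pools lay below all WT pools, but KO pool 3 lay only 0.00036 below WT pool 4. The difference was -0.28 (SE 0.11), or 1.21-fold lower in KO with an interval from 1.02-fold to 1.44-fold. The exact permutation p was 0.0286, the smallest that 4 against 4 pools allow, and limma's p was 0.0321 before and 0.967 after adjustment. Of all genes, 2.58% had KO and WT pools without overlap. The authors' deposited table gives Tet2 a signed fold of -1.21 and an unadjusted p of 0.0238. Leaving out each pool in turn kept the difference between -0.33 and -0.22, with unadjusted limma p between 0.0235 and 0.0888.

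Tet3 was covered by 2 probe sets that did not follow each other. The one with the higher mean, 10545692, was at 7.89, 7.58, 7.04 and 7.35 in KO pools 1 to 4, against 7.69, 8.10, 7.59 and 7.60 in WT pools 1 to 4. KO pools 2 to 4 were the lowest of the 8, and KO pool 1 was second to WT pool 2. The difference was -0.28 (SE 0.18), with a limma adjusted p of 0.967 (exact permutation p = 0.229), and it was -0.14 without KO pool 3. The other, 10545682, was at 6.79, 6.32, 7.18 and 6.53 in KO pools 1 to 4, against 6.86, 6.60, 7.03 and 6.85 in WT pools 1 to 4, a difference of -0.13. Over the 8 pools the 2 probe sets correlated with r = -0.36, given as a description. KO pool 3 was the lowest pool by the first and the highest by the second.

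Tet1 had 3 probe sets and the widest spread of the 10 genes. The one with the highest mean, 10369702, was at 8.60, 8.16, 7.25 and 7.86 in KO pools 1 to 4, against 7.96, 7.84, 7.29 and 7.40 in WT pools 1 to 4. KO pools 1 and 2 were the highest of the 8 and KO pool 3 the lowest, so the KO pools surrounded the WT pools. Its SD within groups, 0.46, was larger than that of 97.4% of the 2999 genes within 0.5 log2 units of its mean level. The difference was 0.34 (SE 0.26), with a limma adjusted p of 0.967 (exact permutation p = 0.343). It was 0.58 without KO pool 3 and 0.13 without KO pool 1. The second probe set, 10369690, had a difference of 0.21 and followed the first with r = 0.97. The third, 10369688, had a difference of 0.22 but followed the first only with r = 0.49, with KO pool 2 at 6.83, its lowest value.

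**Figure D2:**
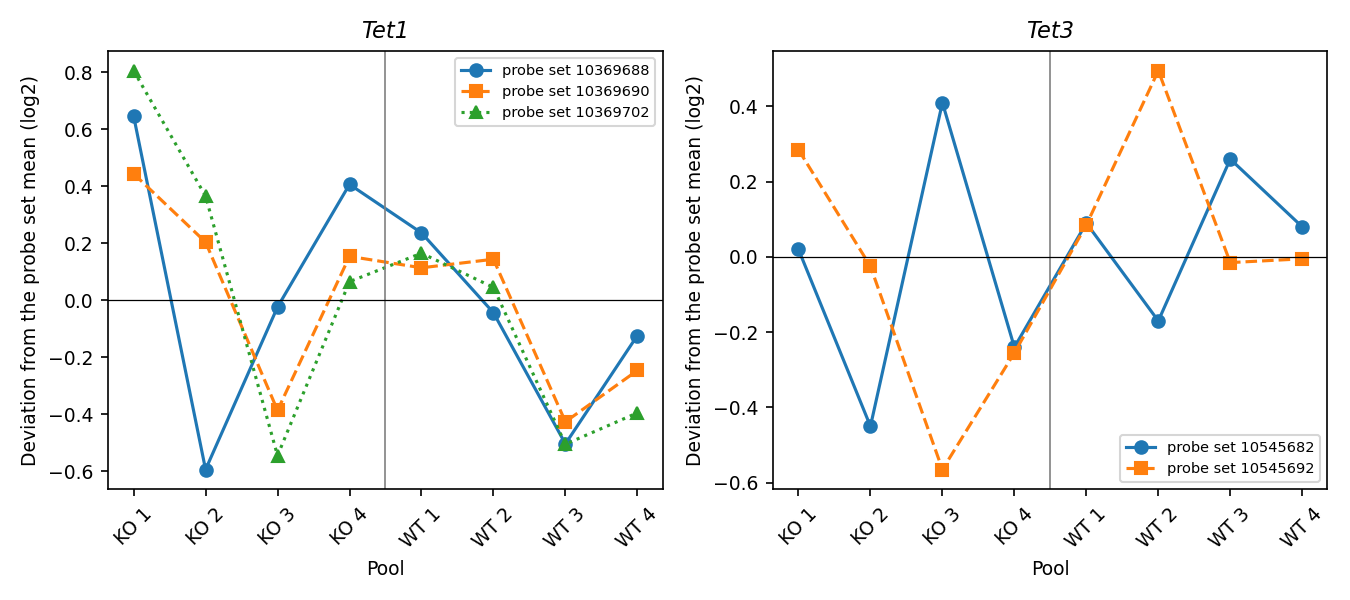
Deviation of each probe set of Tet1 and Tet3 from its own mean over the 8 pools (log2), with KO pools left and WT pools right of the grey line. Probe sets 10369690 and 10369702 of Tet1 run together, while the probe sets of Tet3 run against each other, most in KO pool 3 and WT pool 2.

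Idh1, the cytosolic enzyme, was at 6.96, 7.14, 7.17 and 7.35 in KO pools 1 to 4, against 7.08, 6.99, 7.11 and 7.15 in WT pools 1 to 4. KO pools held both the highest and the lowest value. The difference was 0.07 (SE 0.11), with an interval from 0.887-fold to 1.25-fold, and leaving out KO pool 4 gave 0.01 while leaving out KO pool 1 gave 0.14.

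Idh2, the mitochondrial enzyme, was at 8.90, 8.84, 9.34 and 8.99 in KO pools 1 to 4, against 8.78, 8.63, 9.15 and 8.84 in WT pools 1 to 4. Pool 3 was the highest and pool 2 the lowest WT pool, and KO pool 3 lay above all others. The difference was 0.17 (SE 0.15), with a limma adjusted p of 0.967 (exact permutation p = 0.371), and leaving out KO pool 3 gave 0.06 and leaving out WT pool 3 gave 0.27.

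The ASXL genes varied least. Asxl1 was at 8.10, 8.05, 8.13 and 8.27 in KO pools 1 to 4, against 8.14, 8.02, 8.20 and 8.25 in WT pools 1 to 4. Its SD within groups, 0.10, was larger than that of only 4.19% of 2389 genes of similar level. Asxl2 was at 7.65, 7.67, 7.48 and 7.61 in KO pools 1 to 4, against 7.68, 7.75, 7.46 and 7.59 in WT pools 1 to 4, and its SD of 0.11 exceeded 5.77% of 3259 such genes. Both differences were -0.02, with intervals from 0.844-fold to 1.16-fold for Asxl1 and from 0.838-fold to 1.16-fold for Asxl2, and both were 0.03 with arrays centred on their medians.

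**Figure D3:**
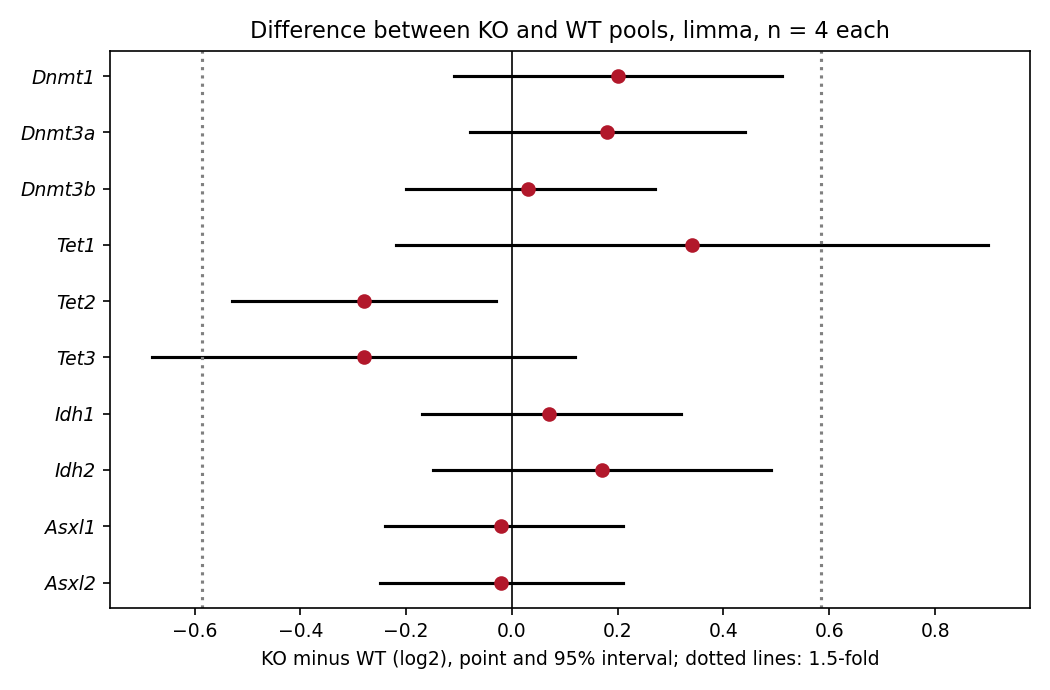
KO minus WT (log2) for the 10 genes as points with 95% limma intervals as lines, n = 4 pools each, and dotted lines at 1.5-fold. The interval of Tet2, -0.53 to -0.03, is the one that leaves out 0, and those of Tet1 and Tet3 cross a dotted line.

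Related enzymes were set against each other within each array, for 6 pairs. The largest gap between differences was that of Tet1 over Tet2, 0.62 with a 95% interval from -0.20 to 1.44, and it did not pass (exact permutation p = 0.114, adjusted p = 0.686 over the 6 pairs). For this ratio 3 KO pools lay above every WT pool, while KO pool 3 stood beside the lowest WT pool. The gap was -0.14 for Dnmt3b over Dnmt3a, with an interval from -0.54 to 0.26, and between -0.25 (without KO pool 3) and -0.06 (without WT pool 2) with 1 pool left out. It was 0.02 for Dnmt1 over Dnmt3a, with one from -0.43 to 0.47. Idh2 over Idh1 gave 0.10, with an interval from -0.27 to 0.47, Tet3 over Tet2 -0.00495, with one from -0.52 to 0.51, and Asxl2 over Asxl1 -0.00442, with one from -0.31 to 0.31. Each of these other pairs had an exact permutation p of at least 0.400 (adjusted p = 0.971).

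Several of the 10 genes varied across the pools together with genes of DNA replication. A score was taken as the mean deviation of 25 S phase genes, none of them among the 10, from their own means. It was -0.09, -0.08, 0.40 and 0.22 in KO pools 1 to 4, against -0.17, -0.39, 0.14 and -0.02 in WT pools 1 to 4, so that KO pool 3 was the highest and WT pool 2 the lowest. Dnmt1 followed the score closely over the 8 pools, with Pearson's r of 0.95 (exact permutation p = 0.000471, adjusted p = 0.00409 over the 10 genes) and Spearman's rho of 0.88 (exact permutation p = 0.00724, adjusted p = 0.0241). Without the pools farthest from the median score, KO pool 3 and WT pool 2, its r was 0.84 (exact permutation p = 0.0264). Idh2 did likewise, with r = 0.94 (exact permutation p = 0.000818, adjusted p = 0.00409), rho = 0.90 (exact permutation p = 0.00456, adjusted p = 0.0228) and r = 0.81 without those pools (exact permutation p = 0.0486).

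Asxl2 and Tet3 ran the other way. Asxl2 had r = -0.87 (exact permutation p = 0.00575, adjusted p = 0.0144) and rho = -0.86 (exact permutation p = 0.0107, adjusted p = 0.0268). Its r was weaker, at -0.69, without KO pool 3 and WT pool 2 (exact permutation p = 0.118). Fewer pools and a narrower range of scores remain then, so this cannot show how far the relation rests on those pools. Without KO pool 3 alone r was -0.81 (adjusted p = 0.0651 by exact permutation), without WT pool 2 alone -0.79 (adjusted p = 0.0714), and with arrays centred on their medians -0.63 (adjusted p = 0.141). Tet3 had r = -0.93 (exact permutation p = 0.00156, adjusted p = 0.00521) and rho = -0.90 (exact permutation p = 0.00456, adjusted p = 0.0228), and r = -0.73 without KO pool 3 and WT pool 2 (exact permutation p = 0.0931). That holds for probe set 10545692 alone: probe set 10545682 gave r = 0.48 and rho = 0.33 (exact permutation p = 0.231 and 0.428).

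Of 21069 genes outside the score and the 10, 2.36% had an r of at least the size of that of Asxl2, 1.54% positive and 0.826% negative. Among the 10517 of them above the median level, where all 10 genes also lie, it was 3.99%, with 3.0% positive and 0.998% negative. Since this size is that of the weakest of the 4, their number among the 10 is fixed by the choice of cutoff and is no test. The relation was also present inside the groups: after each group's mean was removed, r was 0.93 for Dnmt1, 0.93 for Idh2, -0.94 for Asxl2 and -0.91 for Tet3, with adjusted p between 0.0116 and 0.0174 by exact permutation within groups. Tet1 showed it only there, with r = -0.88 after centring (exact permutation p = 0.0122, adjusted p = 0.0243), against r = -0.52 (exact permutation p = 0.188, adjusted p = 0.209) and rho = -0.57 (exact permutation p = 0.151, adjusted p = 0.214) over all pools as they are. The centred r of Tet1 was computed for probe set 10369702 only. Over all pools as they are, its probe set 10369688 had r = -0.03 and 10369690 had r = -0.57. All these permutations treat the pools as separate. Variation shared by same-numbered pools, whose deviations over all genes correlated with r between 0.062 and 0.305, was not removed. The remaining genes, Dnmt3a, Dnmt3b, Tet2, Idh1 and Asxl1, had r between -0.55 and 0.67 and adjusted p between 0.123 and 0.474 by exact permutation. By rank, Idh1 passed, with rho = 0.83 (exact permutation p = 0.0154, adjusted p = 0.0308), against r = 0.67 (exact permutation p = 0.0614, adjusted p = 0.123). Groups of 4 pools are too small for an r of their own, and the labels name no batch within which to repeat it. Markers of multipotent progenitors, which divide more than HSCs, had scores of 0.00, 0.07, 0.41 and 0.13 in KO pools 1 to 4 and of -0.14, -0.37, 0.14 and -0.24 in WT pools 1 to 4, again highest in KO pool 3 and lowest in WT pool 2. Cd48, which the sort was set to remove, is 1 of these 5 markers. Erythroid markers, with 6 of 6 positive differences, had scores of -0.03, 0.33, 0.44 and -0.13 in KO pools 1 to 4 and of -0.16, -0.52, 0.27 and -0.20 in WT pools 1 to 4, with the same highest and lowest pools. Megakaryocyte markers, 4 of 4 positive, and stroma and vessel markers, 3 of 4 positive, each had their highest score, 0.53, in KO pool 3, and their lowest, -0.49 and -0.25, in WT pool 1. Granulocyte markers, 4 of 6 positive, were highest in WT pool 3, at 0.74, and lowest in WT pool 2, at -0.78. HSC markers, 2 of 7 positive, were highest in WT pool 1, at 0.24, and lowest in KO pool 3, at -0.15. The part of these cell types in the relation was not tested.

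**Figure D4:**
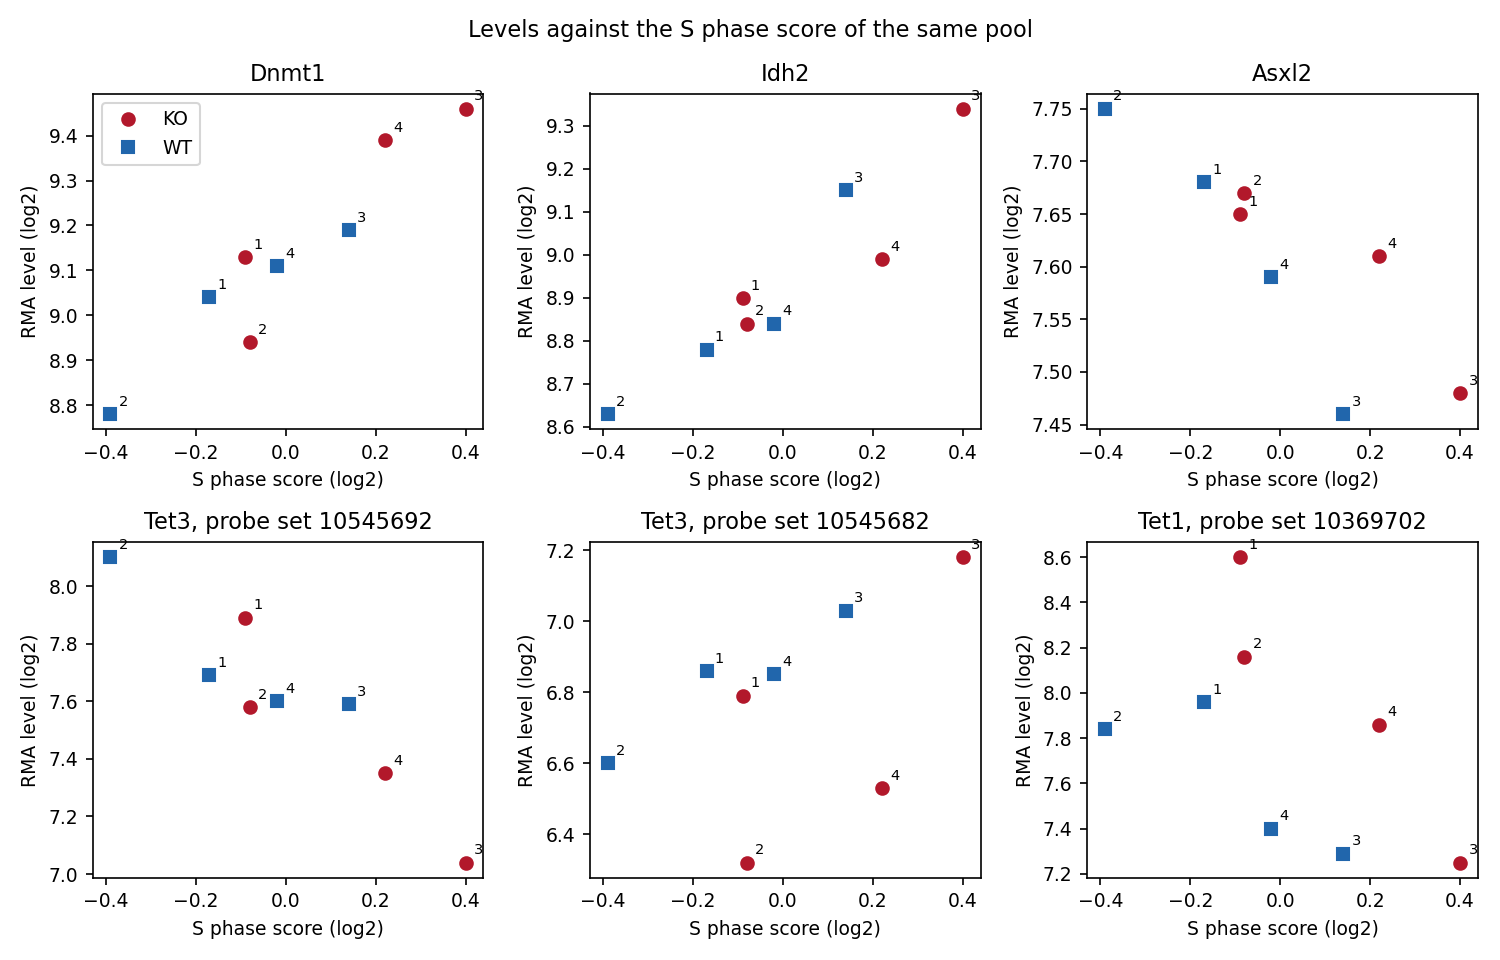
Levels (log2) of Dnmt1, Idh2, Asxl2, both probe sets of Tet3 and the first probe set of Tet1 against the S phase score of the same pool (log2). Red circles are KO pools and blue squares WT pools, with pool numbers beside them. Dnmt1 and Idh2 climb with the score, Asxl2 and probe set 10545692 of Tet3 descend, and probe set 10545682 of Tet3 does not descend.

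With the S phase score as a covariate, a fit chosen after the data were seen, the difference of Dnmt1 was 0.01 (SE 0.12), that of Idh2 -0.03 (SE 0.12) and that of Tet3 -0.01 (SE 0.13). Tet2 had -0.24 (SE 0.13), with an interval from -0.53 to 0.05 that includes 0 and a limma p of 0.0991 before adjustment, and Dnmt3a had 0.17 (SE 0.14). Tet1 had 0.74 (SE 0.17), with a limma p of 0.00112 before and 1.00 after adjustment over all genes. No gene passed in that fit either. Its values for Tet1 and Tet3 are those of probe sets 10369702 and 10545692 alone. Their other probe sets were not fitted with the score. With it, 10369688 of Tet1 had r = -0.03, 10369690 of Tet1 r = -0.57 and 10545682 of Tet3 r = 0.48.

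Among the 10 genes themselves, 45 pairs were correlated over the 8 pools, and none passed after adjustment. The closest were Idh2 with Asxl2, at r = -0.92 (exact permutation p = 0.00149, adjusted p = 0.067) and rho = -0.90 (exact permutation p = 0.00456, adjusted p = 0.103), or r = -0.84 without the 2 pools farthest from the median of Idh2. Dnmt1 with Idh2 had r = 0.86 (exact permutation p = 0.00712, adjusted p = 0.131) and rho = 0.95 (exact permutation p = 0.00114, adjusted p = 0.0513), or r = 0.60 without the 2 pools farthest from the median of Dnmt1. Dnmt3a and Tet2, whose human counterparts are the most often mutated in clonal haematopoiesis, had r = -0.80 (exact permutation p = 0.0182, adjusted p = 0.164) and rho = -0.74 (exact permutation p = 0.0458, adjusted p = 0.412), or r = -0.35 without the 2 pools farthest from the median of Dnmt3a.

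The genes with the most similar pattern over the 8 pools, among 13735 compared, are given as a description, since the best of so many must be high. For Idh2 they were Rrm2, a subunit of the enzyme that makes DNA precursors, with r = 0.989, and Cbfb, the partner of RUNX factors, with r = 0.984. For Dnmt1 they were Myh9 and Eif3b, both with r = 0.983, and for Asxl2 Hoxb5, a homeobox gene of long-term HSCs in mice, and Angel1, both with r = 0.976. Dnmt3b was closest to Hmgb3, a chromatin protein of stem and progenitor cells, with r = 0.975, and to Ptma, with r = 0.953. Dnmt3a was closest to Numb, a NOTCH inhibitor, with r = 0.971, and to Usp49, with r = 0.950. Tet1 was closest to Cog3, with r = 0.980, and Zer1, with r = 0.968, Tet2 to Card10, with r = 0.957, and Dand5, with r = 0.950, and Tet3 to Fam196b, with r = 0.969, and Lrrfip1, with r = 0.964. Idh1 was closest to Mus81, with r = 0.945, and Ifi30, with r = 0.938, and Asxl1 to Fam100b, with r = 0.980, and Ddx54, with r = 0.971.

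Genes that work with the 10 were read from the same fit, and none passed (limma, adjusted over all genes). Counts at an unadjusted p under 0.05 stand against 4.55% of all genes, 2.3% higher and 2.25% lower in KO, and genes whose pools did not overlap against 2.58%. Of 10 methylation cofactors 6 had a positive difference, median 0.06, and none had an unadjusted p under 0.05. Uhrf1, which brings Dnmt1 to half-methylated DNA, differed by 0.21 (SE 0.18), Hells, a remodeller needed for methylation, by 0.19 (SE 0.18), its partner Cdca7 by 0.31 (SE 0.18) and Dnmt3l by -0.22 (SE 0.13). A score of this list in place of S phase gave r = 0.95 for Idh2 (adjusted p = 0.0104 by exact permutation), -0.84 for Asxl2 (adjusted p = 0.0453), 0.73 for Dnmt1 (adjusted p = 0.0964) and -0.71 for Tet3 (adjusted p = 0.106). By rank neither Idh2, with rho = 0.79 (adjusted p = 0.184 by exact permutation), nor Asxl2, with rho = -0.62 (adjusted p = 0.378), passed. Without KO pool 3 and WT pool 3, the farthest from the median of this score, r was 0.74 for Idh2 (exact permutation p = 0.100) and -0.46 for Asxl2 (exact permutation p = 0.354). Both relations were weaker without those pools. Fewer pools and a narrower range of scores remain then, so this cannot show that the relations rest on those pools alone. After each group's mean was removed, the adjusted p was 0.104 for both by exact permutation within groups.

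Downstream of TET, 17 genes of base excision and demethylation had a median of -0.01, with 6 positive, or 10 after quantile normalization and 11 with median centring. Gadd45a, a stress gene linked to demethylation, averaged 6.20 ± 0.33 in KO pools and 6.79 ± 0.26 in WT pools (SD, n = 4 each). Its difference was -0.59 (SE 0.18), with a limma p of 0.00657 before and 0.967 after adjustment. Neil3, a glycosylase, differed by -0.23 (SE 0.14), Ung, the uracil glycosylase, by 0.26 (SE 0.18) and Apobec1, a cytidine deaminase, by 0.23 (SE 0.16). Of 9 readers of methylated CpG 5 were positive, median 0.01, or 4 after quantile normalization and 7 with median centring. Zbtb33, which encodes the reader Kaiso, averaged 7.34 ± 0.13 in KO pools and 6.92 ± 0.42 in WT pools. Its difference was 0.42 (SE 0.18), with a limma p of 0.0409 before and 0.967 after adjustment. Zbtb38 differed by 0.27 (SE 0.21), Mbd3 by 0.19 (SE 0.15) and Mbd6 by -0.13 (SE 0.15).

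Of 14 enzymes of one-carbon and methyl donor supply, 11 were positive, median 0.14, with 11 positive after quantile normalization too and 9 without WT pool 2. Among genes above the median level as a whole, 57.5% had a positive difference. The mean deviation of the list lay between 0.02 and 0.17 in KO pools and between -0.25 and -0.01 in WT pools. That of the TET and ASXL partners, described below, was also apart, between 0.00 and 0.10 in KO pools and between -0.09 and -0.01 in WT pools. The margins were narrow, and the scores of the other related lists overlapped between the groups. How often lists of genes are apart in these pools was not tested, nor whether these stay apart under other scalings. Ahcy, which clears the by-product that inhibits methyltransferases, averaged 9.31 ± 0.16 in KO pools and 8.93 ± 0.31 in WT pools, with all KO pools above all WT pools, where 2.58% of all genes did not overlap in either direction, and a difference of 0.38 (SE 0.16). Mthfd2, a mitochondrial folate enzyme, differed by 0.48 (SE 0.19), Shmt2, its partner in that pathway, by 0.35 (SE 0.17) and Mat2a, which makes the methyl donor, by -0.25 (SE 0.14). Unadjusted, 2 of the 14 had a limma p under 0.05, against 4.55% of all genes, Mthfd2 at 0.0256 and Ahcy at 0.035, and the adjusted p was 0.967 for both.

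Of 23 genes of alpha-ketoglutarate metabolism 18 were positive, median 0.08, with unadjusted p under 0.05 for 4 positive (2.3% of all genes) and 1 negative (2.25% of all genes), D2hgdh, which removes D-hydroxyglutarate, the product of mutant IDH enzymes (difference -0.30, SE 0.13). Got2, the mitochondrial aspartate aminotransferase, averaged 8.94 ± 0.21 in KO pools and 8.29 ± 0.33 in WT pools (SD, n = 4 each). Dlst, a subunit of the complex that consumes alpha-ketoglutarate, averaged 8.01 ± 0.10 in KO pools and 7.58 ± 0.25 in WT pools. In both, all KO pools lay above all WT pools (2.58% of all genes did not overlap), with differences of 0.65 (SE 0.17) and 0.42 (SE 0.13) and a limma adjusted p of 0.967 each. Got1, the cytosolic aminotransferase, differed by 0.64 (SE 0.24) and Mdh2, a malate dehydrogenase, by 0.31 (SE 0.12). The count depends on scaling and on single pools, with 13 positive of 23 after quantile normalization, 13 without KO pool 3 and 14 without WT pool 2.

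Of 11 partners of TET and ASXL proteins 6 were positive, median 0.05. Hcfc1 differed by 0.46 (SE 0.17), Bap1, the deubiquitinase that ASXL proteins activate, by 0.28 (SE 0.13), Cxxc5 by 0.20 (SE 0.12) and Kdm1b by 0.19 (SE 0.13). After quantile normalization 9 of the 11 were positive and with arrays centred on their medians 10. Of 32 other genes mutated in human clonal haematopoiesis 26 were positive, median 0.10, among them Prpf8, a core splicing factor, which averaged 9.60 ± 0.17 in KO pools and 9.24 ± 0.11 in WT pools. The cohesin subunit Smc3 averaged 9.25 ± 0.08 in KO pools and 8.93 ± 0.24 in WT pools. In both, all KO pools lay above all WT pools, and limma's adjusted p was 0.967. Gnas differed by 0.32 (SE 0.17) and Cbl by 0.27 (SE 0.14). Of the 32, 21 were positive after quantile normalization, 30 with median centring and 18 without WT pool 2. Genes above the median level as a whole had 57.5% positive differences, against 49.7% after quantile normalization and 51.2% without WT pool 2. The 25 S phase genes, with 22 positive and a median of 0.26, had 5 with an unadjusted p under 0.05, all higher in KO, against 2.3% of all genes. These were the checkpoint gene Clspn with a difference of 0.41 (SE 0.11), the repressor E2f8 with 0.48 (SE 0.16) and the helicase subunits Mcm4 with 0.41 (SE 0.14) and Mcm2 with 0.51 (SE 0.21), and Tyms, which makes thymidylate, with 0.33 (SE 0.14). Leaving out KO pool 3 brought the median to 0.15, and so did leaving out WT pool 2.

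**Figure D5:**
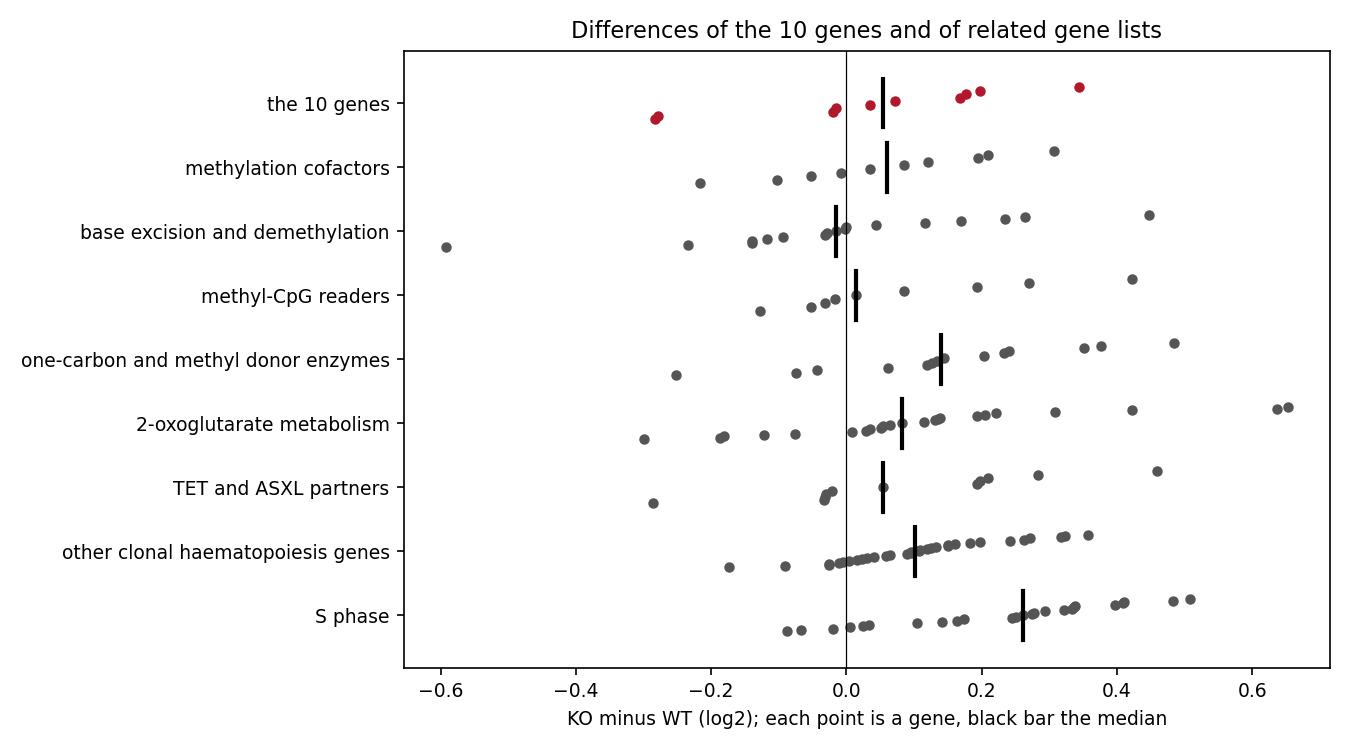
KO minus WT (log2) of the 10 genes, in red, and of the genes of each related list, in grey, with the list's median as a black bar. The 10 genes spread on both sides of 0, between -0.28 and 0.34, and the S phase list has the highest median, 0.26.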

How the data were processed

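RNA of 8 pools (4 KO, 4 WT) was measured on 1 Affymetrix array each. Per the labels' protocols, RNA was amplified by single primer isothermal amplification and biotin-labelled. Per the submitters' processing notes, the authors made log2 values with RMA in Affymetrix Expression Console 1.3, a method that by design subtracts background, equalises the arrays' distributions and summarises probes, which compresses differences of dim genes. The annotated table and the table of values differ by at most 1.8e-15. The authors' deposited table also gives a log2 ratio, a signed fold change (a score, negative for genes with less signal in KO) and a p-value, not adjusted. The sources used here give neither genome build nor annotation release.

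Probe sets with 1 symbol were kept (23586), and per gene the one with the highest mean, which left 21104 genes. KO was compared with WT in R 4.3.3 with limma 3.58.1 (lmFit, eBayes, no covariate) with Benjamini-Hochberg adjustment over all genes, and with exact 2-sided permutation tests over the 70 assignments of pools. The code was tested on simulated data. The number of arrays, 4 a group, limits the precision. P-values measure the spread between pools. Same-numbered pools of the groups correlated in their deviations with r between 0.062 and 0.305, and pools of unlike number with r between -0.219 and 0.026. With 1 of the 4 same-numbered pairs under 0.1, and no pairing stated by the labels, the numbers were not taken to pair the samples. Any variation that same-numbered pools share therefore stays in the main fit, and a fit with the replicate number as a block is given below.

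The named genes are the 10, Bmpr2, up to 4 genes per list with the largest absolute moderated t, and 2 genes of most similar pattern per member above the 25th percentile of level, predicted genes and small RNAs left out. Procr, Hlf, Slamf1, Cd9, D2hgdh, Tyms and the genes called under the replicate block were chosen after their values were seen. Of the listed genes, Dcaf1 was found as Vprbp, and Mbd4 and Gp1bb were not matched. The 10 genes and the lists were chosen with earlier results of these data known. Alternatives were a replicate block, other scalings, filters on dim probe sets, array weights, other probe set choices, the deposited p-values and leaving out each pool.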

Additional observations from a re-analysis of the deposited data

How the results depend on the processing

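Over 19 alternatives no gene of the 10 passed after adjustment, and Dnmt1, Dnmt3a, Tet1, Tet2 and Tet3 kept their direction in each, with Dnmt1 between 0.01 and 0.30, Dnmt3a between 0.11 and 0.23, Tet1 between 0.13 and 0.74, Tet2 between -0.33 and -0.22 and Tet3 between -0.42 and -0.01. The replicate number as a block (limma) called 2 genes where the fit without it called 0, Tjp1 and 7120432I05Rik, and raised the count of the 10 genes at an unadjusted p under 0.05 to 2 (Tet1, with a p of 0.0264, and Tet2), where it was 1 without; it changed no other call among the differences and pairs. With arrays centred on their medians that count was 0, and with 1 pool left out it lay between 0 and 2. Small differences turned round: Dnmt3b to -0.02 after quantile normalization and -0.02 with the S phase covariate (-0.03 to 0.08 with 1 pool left out), Idh1 to -0.00347 and Idh2 to -0.03 with that covariate, Asxl1 to 0.03 with median centring (-0.06 to 0.02 with 1 pool left out), and Asxl2 to 0.03 with median centring and 0.08 with the covariate (-0.07 to 0.02). Among pairs, Asxl2 over Asxl1 was 0.01 after quantile normalization (-0.07 to 0.08 with 1 pool left out), Tet3 over Tet2 0.07 with the mean of probe sets (-0.14 to 0.18), Dnmt1 over Dnmt3a between -0.11 and 0.15 and Idh2 over Idh1 between -0.00468 and 0.19 with 1 pool left out. Of the S phase correlations, that of Asxl2 was -0.63 with median centring (adjusted p = 0.141 by exact permutation) and between -0.94 and -0.79 with 1 pool left out, that of Dnmt3a lay between -0.24 and 0.54 and that of Dnmt3b between 0.11 and 0.88, the last without WT pool 2 (adjusted p = 0.0283 by exact permutation). With the methylation cofactor score, Dnmt1 had 0.73 and Tet3 -0.71. The causes were not tested. The number of arrays, 4 a group, limits the precision of every difference.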

Other observations

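Dnmt3a ran along the S phase score in opposite directions in the KO and the WT pools. In KO pools 1 to 4 it was at 8.16, 8.14, 7.89 and 7.98 beside scores of -0.09, -0.08, 0.40 and 0.22, so the pools with the higher scores had the lower Dnmt3a. In WT pools 1 to 4 it was at 7.79, 7.67, 7.98 and 8.03 beside scores of -0.17, -0.39, 0.14 and -0.02, so there the pools with the higher scores had the higher Dnmt3a. This was noticed in the data, and the difference between the groups was not tested.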
